A study of Ovis aries with 12 samples.

Results

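Macrophage marker genes were followed across corpora lutea of sheep that were kept in pregnancy or were approaching regression in the cycle. The members were 10 genes, CYBB, CD68, CD14, CD163, CSF1R, ITGAM, TYROBP, FCER1G, AIF1 and C1QA, and every probe set annotated with only that symbol was taken. Of the 10 genes, 9 were found, on 12 of the 24016 probe sets tested. No probe set carried the symbol CD163 in the annotation used here, so this hemoglobin scavenger receptor was not analysed here. CYBB, CD14 and ITGAM had 2 probe sets each, and the other 6 genes had 1.

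Log2 expression was measured in 12 corpora lutea, the ovarian glands that make progesterone after ovulation, with 1 ewe per array and 3 ewes per group. The groups were day 14 pregnant, day 14 non-pregnant, day 12 pregnant and day 12 non-pregnant. Pregnant ewes had been bred to a fertile ram, whereas non-pregnant ewes were left unbred and their heat was followed with a vasectomized ram. No agent, allele or breed was given for any group, and the whole gland was used, so a change in the number of macrophages and a change in their RNA per cell cannot be told apart.

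Macrophages are phagocytes that take up dying cells, present in the gland throughout its life and known to accumulate as it regresses. CD14 presents bacterial lipopolysaccharide to Toll-like receptor 4, CSF1R receives the growth factor on which macrophages depend, and C1QA is a chain of the complement starter C1q. TYROBP and FCER1G are adaptors that signal for activating receptors and are also used by NK cells, granulocytes and mast cells. CYBB is the catalytic subunit of the phagocyte NADPH oxidase, ITGAM the alpha chain of the complement receptor CR3, AIF1 an actin-binding protein of macrophages, and CD68 a glycoprotein of lysosomes and late endosomes. Neutrophils also make CYBB and ITGAM.

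Few differences of the markers passed a test. Over the 12 member probe sets and 5 comparisons, 1 of 60 tests passed at a Benjamini-Hochberg adjusted p of 0.05 over all probe sets, which was the dim probe set of CYBB on day 14. CYBB was low in all 3 day 14 non-pregnant glands, while CD68, CD14, AIF1 and TYROBP were highest in 2 of these 3 glands and lower in the third. Differences are log2 differences ± standard error from a limma fit to all 12 arrays with a term for array batch, and levels are log2 values ± SD (n = 3).

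The description labels name a gene array for 4 arrays and a genome array for the other 8. These were taken as array batches A and B, although the labels themselves name no batch. Batch A held day 14 pregnant replicate 3, day 14 non-pregnant replicates 2 and 3 and day 12 pregnant replicate 3. Array medians lay between 5.16 and 5.24. The steroidogenic protein STAR, which marks luteal cells, was bright in every group, with means of 13.12 and 12.35 on day 14 in pregnant and non-pregnant ewes and of 13.02 and 13.05 on day 12. The 3′ minus 5′ difference of the actin and GAPDH control probe sets was averaged over both. It was 1.44 to 1.60 in day 14 pregnant arrays and 1.29 to 1.43 in day 14 non-pregnant arrays. On day 12 it was 1.57 to 1.60 in pregnant and 1.42 to 1.47 in non-pregnant arrays. It was thus higher in pregnant ewes on both days, without overlap, and its part in the results below was not tested. Probe sets with a mean under 3.59, the 25th percentile of all, are called dim, which was the case for 3 of the 12 member probe sets.

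**Figure D1:**
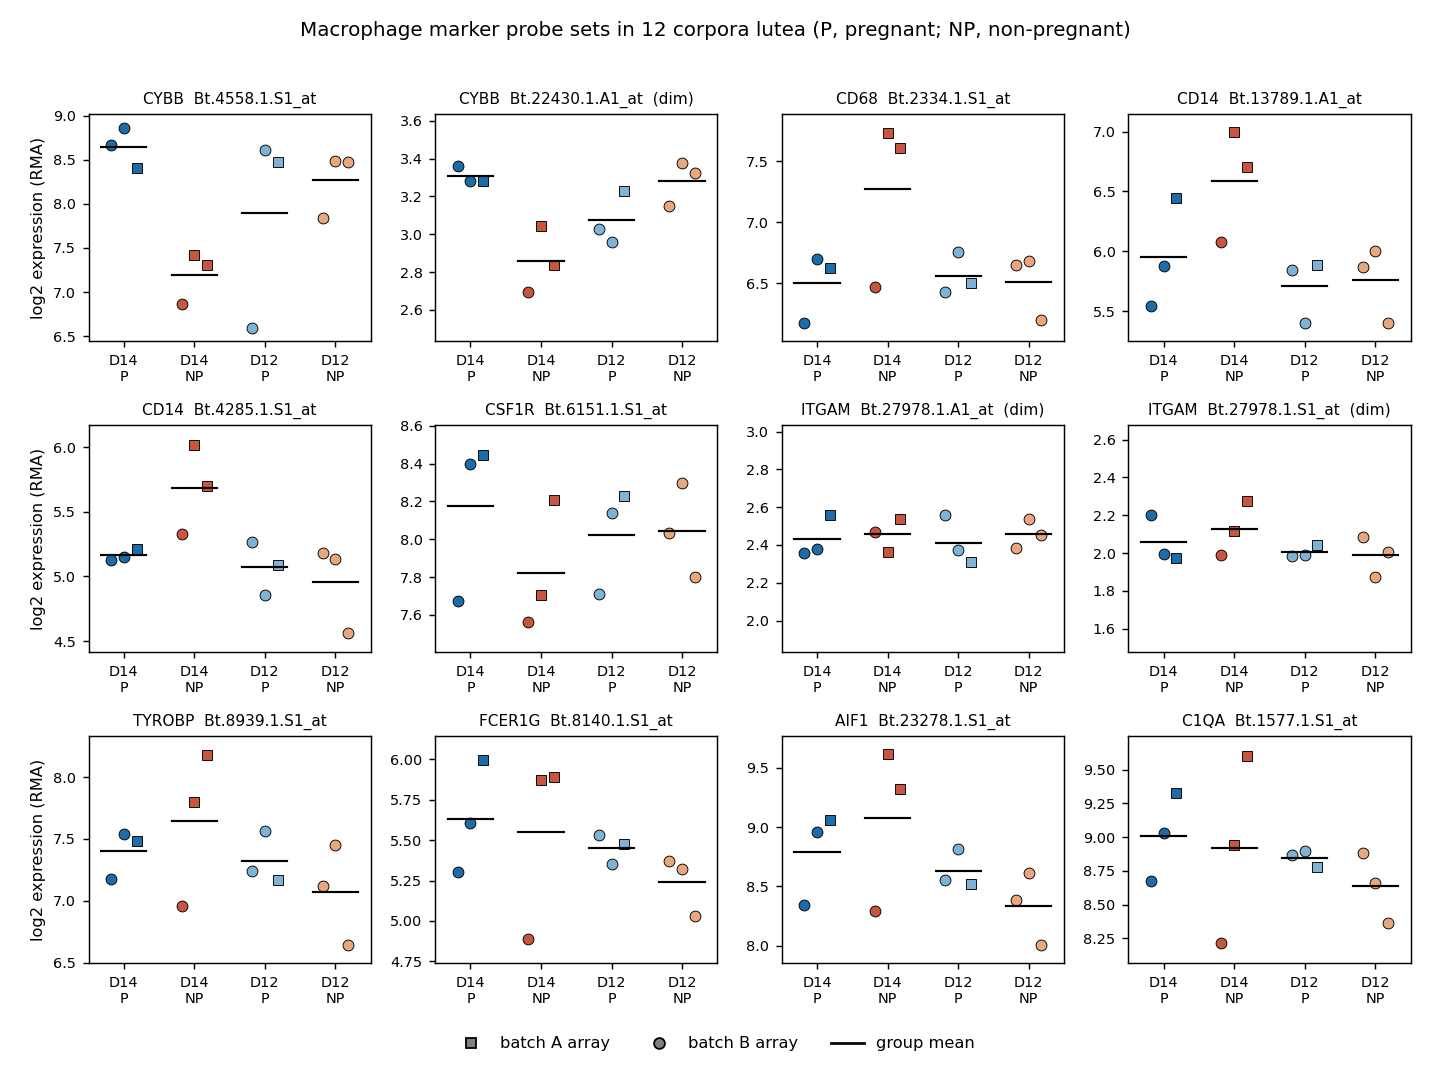
Log2 expression (RMA, vertical axes, each panel with its own range) of the 12 member probe sets in day 14 pregnant, day 14 non-pregnant, day 12 pregnant and day 12 non-pregnant ewes; each point is 1 ewe, squares are batch A arrays, circles are batch B arrays and bars are group means. CYBB lay between 6.87 and 7.42 in the day 14 non-pregnant glands, below all 3 day 14 pregnant ones. The batch A squares of the day 14 non-pregnant group lay above its circle for every probe set that was not dim, that of CYBB included.

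CYBB varied more than any other member. Its brighter probe set read 8.66, 8.86 and 8.41 in day 14 pregnant ewes, against 6.87, 7.42 and 7.30 in day 14 non-pregnant ewes. In day 12 pregnant ewes it read 6.59, 8.61 and 8.48, and in day 12 non-pregnant ewes 7.84, 8.48 and 8.48. The 3 day 14 non-pregnant glands lay below all other glands but day 12 pregnant replicate 1, which was the lowest of the 12. By group mean the order was day 14 pregnant (8.65 ± 0.228), day 12 non-pregnant (8.27 ± 0.367), day 12 pregnant (7.90 ± 1.13) and day 14 non-pregnant (7.20 ± 0.292). The 3 higher groups overlapped with each other, and the day 12 pregnant group also overlapped with the lowest.

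On day 14 the brighter CYBB probe set was 2.95-fold higher in pregnant than in non-pregnant ewes, at 1.56 ± 0.43 (95% interval 0.61 to 2.51), and did not pass (limma adjusted p = 0.111). The difference was 1.05 among batch A arrays and 1.90 among batch B arrays. The outlying day 12 pregnant replicate 1 enters this difference through the shared batch term and the pooled spread. Without it the value was 1.45 ± 0.21 and passed (adjusted p = 0.0122). That was the only pass among the 12 fits that left out 1 array, with adjusted p up to 0.259. The other CYBB probe set was dim, at 3.36, 3.28 and 3.28 in day 14 pregnant ewes, against 2.69, 3.04 and 2.84 in day 14 non-pregnant ewes. Its groups did not overlap either, and it rose in pregnant ewes by 0.50 ± 0.11 (adjusted p = 0.0474). It passed in 1 of the 12 fits that left out 1 array, with adjusted p from 0.0287 to 0.162.

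In the cycle, from day 12 to day 14, CYBB was lower in all 3 day 14 non-pregnant ewes than in all 3 day 12 non-pregnant ewes by both probe sets. The brighter was at -1.29 ± 0.48 (adjusted p = 0.318) and the dim at -0.52 ± 0.12 (adjusted p = 0.0984), so neither passed. The dim probe set passed only in the fit without day 14 non-pregnant replicate 2 (adjusted p = 0.0499). Between day 14 and day 12 in pregnancy the brighter probe set was at 0.75 ± 0.42 (adjusted p = 0.992), and at 0.10 without day 12 pregnant replicate 1. Its pregnancy difference on day 14 minus that on day 12 was 2.04 ± 0.64 and did not pass (adjusted p = 0.341), and without the same gland it was 1.18 (adjusted p = 0.488).

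The LPS coreceptor CD14 and the lysosomal CD68 had the opposite order on day 14. CD68 read 6.18, 6.70 and 6.63 in day 14 pregnant ewes, against 6.47, 7.73 and 7.60 in day 14 non-pregnant ewes. It read 6.43, 6.75 and 6.50 in day 12 pregnant ewes and 6.65, 6.68 and 6.20 in day 12 non-pregnant ewes. Replicates 2 and 3 of the day 14 non-pregnant group, the batch A pair, thus lay above all other 10 glands, and replicate 1 lay within the range of the other groups. The other batch A arrays, day 14 pregnant replicate 3 and day 12 pregnant replicate 3, were at 6.63 and 6.50, among the batch B values.

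CD68 was at -0.63 ± 0.26 in day 14 pregnant minus non-pregnant ewes (95% interval -1.19 to -0.060, adjusted p = 0.271). The batch A arrays alone gave -1.04 and the batch B arrays alone -0.034. Without day 14 non-pregnant replicate 1 it was -1.14 ± 0.23 and passed (adjusted p = 0.0395), and with its batch A pair left out it was 0.013 ± 0.26. The value therefore rested on which of the 3 non-pregnant glands entered. Between day 14 and day 12 in non-pregnant ewes CD68 was at 0.47 ± 0.29 (adjusted p = 0.569), and in batch B alone at -0.039.

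CD14 showed the same order with a smaller gap between the batches. Its brighter probe set read 5.54, 5.88 and 6.45 in day 14 pregnant ewes, against 6.07, 6.99 and 6.70 in day 14 non-pregnant ewes. It read 5.84, 5.40 and 5.89 in day 12 pregnant ewes and 5.87, 6.0 and 5.40 in day 12 non-pregnant ewes. The day 14 non-pregnant glands lay above every day 12 gland and overlapped with day 14 pregnant replicate 3. The second probe set read 5.13, 5.15 and 5.21 in day 14 pregnant ewes, against 5.33, 6.02 and 5.70 in day 14 non-pregnant ewes, without overlap. On day 12 it read 5.26, 4.86 and 5.09 in pregnant and 5.18, 5.13 and 4.56 in non-pregnant ewes, below all 3 day 14 non-pregnant glands.

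The day 14 difference between pregnant and non-pregnant ewes was -0.44 ± 0.19 for the brighter CD14 probe set (adjusted p = 0.308) and -0.45 ± 0.19 for the other (adjusted p = 0.279). Within batches A and B it was -0.40 and -0.36 for the brighter and -0.65 and -0.19 for the other, so the sign was the same in both. Between day 14 and day 12 in non-pregnant ewes the values were 0.44 ± 0.22 (adjusted p = 0.469) and 0.58 ± 0.21 (adjusted p = 0.301). Without the batch term these became 0.83 ± 0.26 (adjusted p = 0.143) and 0.72 ± 0.19 (adjusted p = 0.0764), which did not pass either.

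CSF1R, the receptor for colony-stimulating factor 1, had a day 14 difference of the same sign as CYBB. It read 7.68, 8.40 and 8.45 in day 14 pregnant ewes, against 7.56, 7.71 and 8.21 in day 14 non-pregnant ewes. The groups overlapped, and the difference of 0.47 ± 0.21 did not pass (95% interval 0.011 to 0.93, adjusted p = 0.312), at 0.49 in batch A alone and 0.48 in batch B alone. On day 12 it read 7.71, 8.14 and 8.23 in pregnant and 8.03, 8.30 and 7.80 in non-pregnant ewes. CSF1R had the smallest range over the 12 arrays among the 9 member probe sets that were not dim, at 0.885, against 2.27 for CYBB.

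The adaptors TYROBP and FCER1G spread widely within the day 14 non-pregnant group. TYROBP read 7.18, 7.54 and 7.48 in day 14 pregnant ewes, against 6.95, 7.80 and 8.18 in day 14 non-pregnant ewes, so the highest glands and a low gland stood in the same group. FCER1G read 5.30, 5.61 and 5.99 in day 14 pregnant ewes, against 4.89, 5.87 and 5.89 in day 14 non-pregnant ewes, whose replicate 1 was the lowest of all 12. The differences were -0.14 ± 0.27 for TYROBP (95% interval -0.74 to 0.46, adjusted p = 0.858) and 0.26 ± 0.18 for FCER1G (-0.14 to 0.66, adjusted p = 0.543). For TYROBP the sign turned between batches, being -0.51 in batch A alone and 0.41 in batch B alone. FCER1G was at 0.11 and 0.57. Over the 12 fits without 1 array both signs occurred, with TYROBP from -0.62 to 0.056 and FCER1G from -0.055 to 0.34. On day 12 TYROBP read 7.24, 7.56 and 7.17 in pregnant and 7.12, 7.45 and 6.64 in non-pregnant ewes. FCER1G read 5.53, 5.35 and 5.48 in pregnant and 5.37, 5.32 and 5.03 in non-pregnant ewes on that day. The day 12 groups overlapped for both adaptors.

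AIF1 and the complement gene C1QA showed the same split. AIF1 read 8.34, 8.96 and 9.06 in day 14 pregnant ewes, against 8.29, 9.62 and 9.32 in day 14 non-pregnant ewes. C1QA read 8.68, 9.03 and 9.33 in day 14 pregnant ewes, against 8.22, 8.94 and 9.60 in day 14 non-pregnant ewes. For AIF1 the batch A pair of the non-pregnant group was the highest of the 12 glands, and for C1QA the group held both the highest and the lowest gland. The differences were -0.13 ± 0.27 for AIF1 (95% interval -0.72 to 0.46, adjusted p = 0.866) and 0.25 ± 0.25 for C1QA (-0.29 to 0.79, adjusted p = 0.674). In batches A and B taken alone AIF1 was at -0.41 and 0.36, and C1QA at 0.062 and 0.64. Both signs also occurred over the 12 fits without 1 array, with AIF1 from -0.60 to 0.041 and C1QA from -0.13 to 0.49. On day 12 AIF1 read 8.55, 8.81 and 8.52 in pregnant and 8.39, 8.61 and 8.0 in non-pregnant ewes. C1QA read 8.86, 8.90 and 8.78 in pregnant and 8.88, 8.66 and 8.36 in non-pregnant ewes on that day. Day 12 values of both genes overlapped between the groups.

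Both ITGAM probe sets were dim, at 2.31 to 2.56 and at 1.88 to 2.28 over the 12 arrays. The arrays carry probes of bovine sequence and the RNA was ovine, and the deposited values hold no detection call, so whether ITGAM was expressed was not settled here. Its day 14 differences between pregnant and non-pregnant ewes were -0.022 ± 0.11 and -0.056 ± 0.11.

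**Figure D2:**
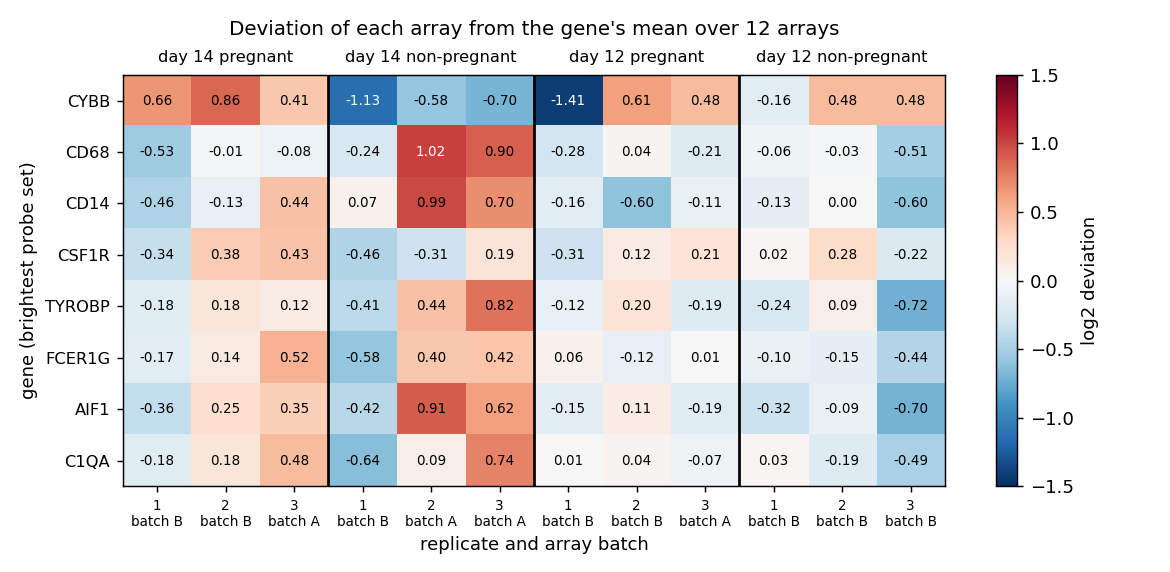
Deviation of each array from the gene's mean over the 12 arrays (colour and printed value, log2) for the brightest probe set of the 8 member genes that were not dim, in rows, with the arrays by group, replicate and batch in columns. Replicates 2 and 3 of the day 14 non-pregnant group combine high CD68, CD14, TYROBP and AIF1 with low CYBB, and replicate 1 of that group is low in all genes but CD14.

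Set against the other members in the same gland, CYBB stood below them in all 3 day 14 non-pregnant glands. The deviation of CYBB from its own mean, minus the mean deviation of the other 7 genes that were not dim, was 0.98, 0.72 and 0.084 in day 14 pregnant ewes, against -0.75, -1.08 and -1.33 in day 14 non-pregnant ewes. On day 12 it was -1.27, 0.64 and 0.56 in pregnant and -0.044, 0.49 and 1.0 in non-pregnant ewes. This contrast was set up after the values were seen and was not tested. By the brighter CYBB probe set, which these values use, day 12 pregnant replicate 1 shared the low relative level.

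By the brighter probe set, day 12 pregnant replicate 1 was low in CYBB without a matching fall in the other markers. Its deviation from the mean was -1.41 for CYBB and lay between -0.31 and 0.064 for the other 7. The dim CYBB probe set read 3.03 in that gland, between the 2.96 and 3.23 of replicates 2 and 3 of its group. Among day 12 non-pregnant glands replicate 3 was low in these 7 genes, at a mean deviation of -0.53, against -0.11 and -0.014 in replicates 1 and 2, while its CYBB was at 0.48.

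On day 14, 1 of the 12 member probe sets passed between pregnant and non-pregnant ewes, which is 8.33%, beside 1.45% of all probe sets (348 of 24016). The members' median difference was -0.039, beside 0.029 for all probe sets, and 5 of 12 lay above 0, beside 56.6% of all. Before adjustment, 6 of 12 had p under 0.05, beside 15.4% of all, and these 6 were both probe sets of CYBB and of CD14, CD68 and CSF1R, with CYBB and CSF1R above 0 and CD14 and CD68 below. The groups did not overlap for 3 of the 12, which were both CYBB probe sets and 1 of CD14, beside 18.3% of all probe sets.

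On day 12, 0 of the 12 passed in limma between pregnant and non-pregnant ewes, beside 0% of all probe sets, and 1 had an unadjusted p under 0.05, the dim CYBB probe set at -0.26 ± 0.11. Differences ran from -0.48 for CYBB to 0.15 for TYROBP, with a median of -0.022. The CYBB value turned to 0.27 without day 12 pregnant replicate 1. All 12 overlapped between the groups, beside 16.4% of all probe sets without overlap. From day 12 to day 14 in pregnancy 0 of 12 passed, beside 0% of all, and 1 had an unadjusted p under 0.05, again the dim CYBB probe set (0.23 ± 0.10). The groups did not overlap for 1 of the 12, beside 9.90% of all. Here 11 of 12 differences lay above 0, beside 48.4% of all probe sets, with a median of 0.15 beside -0.0049 for all. CD68 was the exception, at -0.062 ± 0.25.

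From day 12 to day 14 without pregnancy 0 of the 12 passed in limma, beside 0.391% of all probe sets (94 of 24016), and 3 had an unadjusted p under 0.05. These 3 were both CYBB probe sets, which lay below 0, and the dimmer CD14 probe set, which lay above. The groups did not overlap for both probe sets of CYBB and of CD14, 4 of 12, beside 19.8% of all. AIF1 (0.43 ± 0.30), TYROBP (0.37 ± 0.30) and CD68 lay above 0, CSF1R below (-0.46 ± 0.23), and FCER1G (-0.040 ± 0.20) and C1QA (-0.034 ± 0.27) near 0. For the pregnancy difference on day 14 minus that on day 12, 0 of 12 passed, beside 0.0874% of all, with 2 unadjusted p under 0.05, those of CYBB. All 3 day 12 non-pregnant arrays were of batch B, and in that batch alone the cycle difference was -1.40 for the brighter CYBB probe set, -0.12 for TYROBP, -0.043 for AIF1, -0.35 for FCER1G and -0.42 for C1QA, with 1 day 14 array. The comparisons share groups, so their values are not independent.

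**Figure D3:**
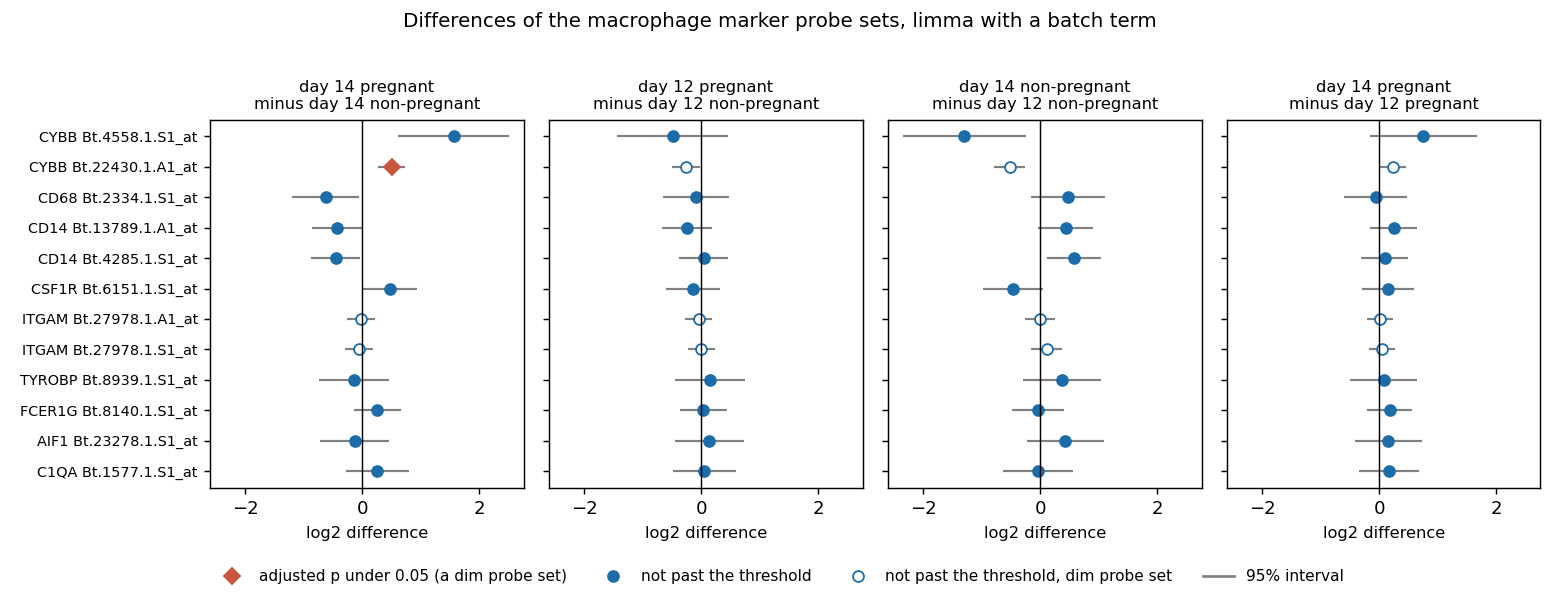
Log2 differences of the 12 member probe sets in 4 comparisons (horizontal axes, 95% intervals as bars, limma with a batch term); the diamond marks the probe set with adjusted p under 0.05 and open circles mark dim probe sets that did not pass. On day 14 between pregnant and non-pregnant ewes CYBB lies to the right at 1.56 and 0.50 and CD68 to the left at -0.63, and on day 12 no interval but that of the dim CYBB probe set leaves out 0.

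Of 5 measured partner subunits of the oxidase 0 passed in any comparison in limma. NCF4, a cytosolic subunit that binds phosphoinositides, was at 6.87 ± 0.289 in day 14 pregnant and 7.70 ± 0.0726 in day 14 non-pregnant ewes, and its difference of -0.84 ± 0.19 had the opposite sign to that of CYBB (adjusted p = 0.0623). NCF1, the organizer subunit, was at -0.07 ± 0.18 (adjusted p = 0.896). The median of the 5 was -0.073.

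Among the C1q partners, C1 proteases and complement receptors 0 of 11 passed in any comparison. On day 14 between pregnant and non-pregnant ewes 8 of 11 lay above 0, beside 56.6% of all probe sets, with a median of 0.20. C1S, the C1 protease that cleaves C4, was at 0.48 ± 0.12 (adjusted p = 0.0881), and the alternative pathway factor CFP at 0.44 ± 0.14 (adjusted p = 0.151). Of the Fc receptors, kinases and partners of the adaptors 0 of 11 passed, with a median of -0.17 on day 14. The myeloid kinase FGR was at -0.59 ± 0.19 (adjusted p = 0.165) and LYN at -0.38 ± 0.12 (adjusted p = 0.167). Both were without overlap between the groups, as were 18.3% of all probe sets. From day 12 to day 14 without pregnancy 9 of these 11 lay above 0, beside 44.1% of all probe sets, with a median of 0.24. Their mean deviation was -0.081 in the batch B array of day 14 non-pregnant ewes and 0.35 and 0.28 in the batch A pair. In day 12 non-pregnant ewes, all of batch B, it ran from -0.28 to 0.0026. The part of batch was not tested.

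The CSF1 receptor ligands and myeloid transcription factors had 0 of 10 past the threshold and a day 14 median of 0.015 between pregnant and non-pregnant ewes. MITF, a factor of macrophages, osteoclasts and mast cells, was at -0.42 ± 0.14 (adjusted p = 0.172), and CSF2RB, the shared receptor chain for GM-CSF, at 0.01 ± 0.18 (adjusted p = 0.991). From day 12 to day 14 in pregnancy CSF2RB was at -0.51 ± 0.17 (adjusted p = 0.992). Of the Toll-like receptors and partners of CD14, 0 of 9 passed. From day 12 to day 14 without pregnancy all 9 lay above 0, beside 44.1% of all probe sets, with a median of 0.14. This comparison sets 2 batch A arrays and 1 batch B array of day 14 against 3 batch B arrays of day 12. The dim LPS-binding protein LBP was at 0.23 ± 0.16 in that comparison (adjusted p = 0.645). TLR3, a sensor of double-stranded RNA, was at -0.32 ± 0.15 on day 12 in pregnant minus non-pregnant ewes (adjusted p = 0.668). On day 14 between these states TLR3 was at -0.09 ± 0.15 (adjusted p = 0.831) and LBP at -0.0045 ± 0.15. Of the β2 integrin list 0 of 8 passed, with the secreted FGL2 at -1.19 ± 0.32 (adjusted p = 0.105) and the integrin chain ITGAD at -0.05 ± 0.15 (adjusted p = 0.922). On day 12 ITGAD was at -0.47 ± 0.15 in pregnant minus non-pregnant ewes (adjusted p = 0.531).

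Scavenger and lectin receptors had 2 of 17 measured members past the threshold on day 14, both lower in pregnant ewes, beside 1.45% of all probe sets (129 higher and 219 lower). OLR1, the receptor for oxidized LDL, was at 4.88 in day 14 pregnant and 8.02 in day 14 non-pregnant ewes (-3.17 ± 0.50, adjusted p = 0.0119), and LGALS3, the lectin galectin 3, at 9.47 and 10.1 (-0.61 ± 0.13, adjusted p = 0.049). OLR1 also rose in the cycle from day 12 to day 14 (3.0 ± 0.55, adjusted p = 0.0483), 1 of 17, beside 0.391% of all probe sets. With the batch A pair of day 14 non-pregnant ewes left out, OLR1 was at -1.67 and passed (adjusted p = 0.0464), whereas LGALS3 was at -0.35 and did not (adjusted p = 0.322). OLR1 lost the call on day 14 when day 14 pregnant replicate 3 was left out (adjusted p = 0.0909) and passed in the cycle in 2 of the 12 fits without 1 array, and LGALS3 passed in 1 of the 12 fits without 1 array. Both genes are also expressed outside macrophages, and the list's median was 0.097.

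Products of macrophage activation had 2 of 26 past the threshold on day 14, again lower in pregnant ewes, beside the same 1.45% of all probe sets. They were the lipid droplet coat protein PLIN2 (-2.61 ± 0.39, adjusted p = 0.0084) and the growth factor TGFB1 (-0.76 ± 0.13, adjusted p = 0.0209), which steroidogenic and stromal cells make too. PLIN2 passed in 11 and TGFB1 in 9 of the 12 fits without 1 array, and both were least clear without day 14 pregnant replicate 3 (adjusted p = 0.0788 and 0.101). The median of the 26 was -0.034. Monocyte recruitment genes had 0 of 14 past the threshold in any comparison, with the chemokine CCL2 at -1.09 ± 0.32 on day 14 (adjusted p = 0.129) and at 1.34 ± 0.36 from day 12 to day 14 without pregnancy (adjusted p = 0.153). CCL8, a further monocyte chemokine, was at 0.85 ± 0.16 in the cycle (adjusted p = 0.0549).

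Inside the day 14 non-pregnant group, markers of some other cells followed the split in the same or the opposite direction. Those of T and NK cells and of B cells did not. The mean deviation of the 8 macrophage markers that were not dim was -0.47 in replicate 1 and 0.37 and 0.46 in replicates 2 and 3. That of 11 pan-leukocyte markers was -0.065, 0.40 and 0.33, and that of 11 luteal cell markers -0.11, -0.49 and -0.51. For 16 T and NK cell markers it was -0.036, -0.12 and 0.077, for 7 neutrophil and eosinophil markers -0.071, 0.13 and 0.16, for 4 B cell markers 0.030, -0.021 and 0.063, and for 14 endothelial markers 0.11, -0.41 and -0.13. For 3 dendritic and mast cell markers it was -0.056, 0.13 and 0.11, and for 16 fibroblast and mural markers -0.14, 0.042 and 0.19. Macrophage and pan-leukocyte markers were thus high, and luteal markers low, in the same pair of glands, both of batch A. For the macrophage markers the other batch A arrays, day 14 pregnant replicate 3 and day 12 pregnant replicate 3, were at 0.33 and -0.010. The parts of cell composition and of batch in these differences were not tested.

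In the other 3 groups the macrophage markers' mean deviation ran from -0.20 to 0.33 in day 14 pregnant, -0.29 to 0.051 in day 12 pregnant and -0.40 to 0.048 in day 12 non-pregnant ewes. The pan-leukocyte markers ran from -0.13 to 0.28, -0.17 to -0.14 and -0.30 to -0.043 in the same groups. The luteal markers ran from 0.041 to 0.20, 0.12 to 0.18 and 0.038 to 0.17, so all 9 glands outside the day 14 non-pregnant group lay above its 3.

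Among these lists the leukocyte ones had 0 members past the threshold in any comparison, with 0 of 13 pan-leukocyte, 0 of 20 T and NK, 0 of 13 neutrophil and eosinophil, 0 of 6 B cell and 0 of 6 dendritic and mast cell markers in limma. The haematopoietic GTPase regulator ARHGDIB was at 0.56 ± 0.13 on day 14 in pregnant minus non-pregnant ewes (adjusted p = 0.0632) and the lymphocyte surface protein CD52 at -0.23 ± 0.10 (adjusted p = 0.312). The leukotriene cofactor ALOX5AP was at 0.50 ± 0.15 (adjusted p = 0.141). The pan-leukocyte median was 0.41 from day 12 to day 14 without pregnancy and 0.24 from day 12 to day 14 in pregnancy, beside -0.026 and -0.0049 for all probe sets. The batch B gland of day 14 non-pregnant ewes had a mean deviation of -0.065 for these markers. It lay within the -0.30 to -0.043 of day 12 non-pregnant ewes, all of batch B, and the part of batch was not tested.

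The luteal list had STAR (0.74 ± 0.13, adjusted p = 0.0245) and the nuclear receptor NR5A2 (1.16 ± 0.12, adjusted p = 0.00148) higher on day 14 in pregnant ewes, 2 of 11. The endothelial list had CD34 (1.09 ± 0.16, adjusted p = 0.00828) and TIE1 (0.48 ± 0.09, adjusted p = 0.0266) higher, 2 of 14. The mural list had the contractile protein CNN1 lower, 1 of 16. These day 14 counts stand beside 1.45% of all probe sets. CNN1 was at 6.18 ± 0.244 in day 14 pregnant and 7.79 ± 0.186 in day 14 non-pregnant ewes (-1.54 ± 0.15, adjusted p = 0.000974). In the cycle CNN1 rose from day 12 to day 14 (1.38 ± 0.16, adjusted p = 0.00525) and NR5A2 fell (-0.86 ± 0.14, adjusted p = 0.0239). These were 1 of 16 and 1 of 11 in their lists, beside 0.391% of all probe sets. Over the 12 fits without 1 array the day 14 calls held in 12 for NR5A2 and CNN1, 11 for CD34, 8 for STAR and 7 for TIE1, and the NR5A2 call of the cycle in 7. With the batch A pair of day 14 non-pregnant ewes left out, NR5A2 (1.2, adjusted p = 0.0219) and CNN1 (-1.71, adjusted p = 0.0033) passed, and STAR (0.40, adjusted p = 0.191), CD34 (0.69, adjusted p = 0.0596) and TIE1 (0.50, adjusted p = 0.126) did not.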

How the data were processed

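RNA of 12 ovine corpora lutea had been labelled and hybridised to Affymetrix bovine arrays. The deposited table holds log2 values. Per the submitters' processing notes the authors used Affymetrix Expression Console and RMA, whose versions and settings the sources used here do not give. This method corrects background, normalizes arrays by quantiles and gives no detection call. Groups follow the source labels, since the titles call all 12 arrays day 12 pregnant. Batches follow the description labels, which name a gene array or a genome array. Replicate numbers are in accession order and pair no ewes.

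After removal of 112 control probe sets, limma 3.58.1 (R 4.3.3) fitted group means and a batch term, with 7 residual and 4.391 prior degrees of freedom. Tests were two-sided and adjusted by Benjamini-Hochberg over 24016 probe sets, with a threshold of 0.05. The code was tested on simulated data. Symbols came from GEO's platform annotation (13292 probe sets with 1 symbol, 86 with several, 10638 with none) and can be old. The brightest probe set stands for a gene in lists. Members and lists were chosen with earlier results of these data known. All member probe sets are named, with up to 6 members per list that passed in any comparison, or up to 2 with the smallest p where none did. The number of arrays limits precision. Alternatives were the batch term, the arrays fitted, array weights, moderation, dim probe sets, leaving out arrays, and averaging a gene's probe sets.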

Additional observations from a re-analysis of the deposited data

Results flagged for a closer look

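The dim CYBB probe set differed in opposite directions between the days in pregnant and non-pregnant ewes. All 3 day 14 pregnant ewes lay above all 3 day 12 pregnant ewes, beside 9.90% of all probe sets without overlap in either direction. All 3 day 14 non-pregnant ewes lay below all 3 day 12 non-pregnant ewes, beside 19.8% of all. Neither difference passed (limma adjusted p = 0.992 and 0.0984). The pregnancy difference on day 14 minus that on day 12 was 0.76 ± 0.16 (limma adjusted p = 0.155), which did not pass. The lowest day 14 pregnant value of this probe set was 3.28 and the highest day 12 pregnant value 3.23. For the brighter CYBB probe set these pregnant groups overlapped.

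For CNN1, a mural cell marker, the pregnancy difference on day 14 minus that on day 12 passed, at -1.43 ± 0.22 (limma adjusted p = 0.0456). The call held in 2 of the 12 fits without 1 array, with adjusted p up to 0.161, the highest without day 12 pregnant replicate 2.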

How the results depend on the processing

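The 1 member probe set that passed on day 14, of CYBB, did not pass without a batch term, with batch as a random block, with only the compared groups, with array weights, without the batch A pair of day 14 non-pregnant ewes, or with dim probe sets left out, which removes it; the member count was then 0. It passed in 2 of 18 alternatives, with trended robust moderation and without day 14 non-pregnant replicate 2. The member count was 0 to 1 over the fits without 1 array, on day 14 and in the cycle, and 0 for the other comparisons. The count over all probe sets on day 14 was 348, and became 531 without a batch term, 24 with only the compared groups, 141 with array weights, 174 without the batch A pair and 88 to 510 without 1 array. In the cycle the 94 became 415 without a batch term, 462 with a random block, 1 with only the compared groups, 159 without the batch A pair and 28 to 254 without 1 array. The 21 of the interaction became 50 without a batch term, 50 with a random block, 59 without the batch A pair and 1 to 76 without 1 array. On day 12 the 0 became 1 with only the compared groups and 0 to 5 without 1 array. The causes were not tested. No paired analysis was possible because each array came from a different ewe and the labels pair no ewes.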
